A study of Mus musculus with 4 samples.

Results

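The Hedgehog signalling genes described here are 9 genes, *Shh*, *Ihh*, *Smo*, *Ptch1*, *Gli1*, *Gli2*, *Gli3*, *Sufu* and *Hhip*, taken by gene symbol from the 23997 genes of the deposited table. All 9 were listed there. Their expression was compared between Lgr5+ progenitors and Lgr6+ progenitors, which are EGFP+ cells sorted by FACS from the C57BL/6 mouse cochlea at postnatal day 3. The Lgr5+ cells came from Lgr5-EGFP-IRES-creERT2 mice and the Lgr6+ cells from Lgr6-EGFP-IRES-CreERT2 mice, so that each sort relies on EGFP reporting 1 gene, and the number of animals pooled is not given in the sources used here. The labels list 2 RNA-Seq libraries per population, and the methods describe 3 fractions of one RNA extraction. The table holds 1 combined FPKM, a fragment count scaled by transcript length and library size, for each gene in each population. The spread between libraries is therefore unknown, no difference given here has a replicate check, and no test was run.

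Hedgehog signalling starts when a secreted ligand, such as the products of *Shh*, *Ihh* and *Dhh*, binds the receptor Ptch1. Unbound Ptch1 keeps the membrane protein Smo inactive, and active Smo works through the primary cilium to release the Gli transcription factors from the inhibitor Sufu. Gli2 acts mainly as an activator and Gli3 mainly as a repressor, while *Gli1*, *Ptch1* and *Hhip* are themselves switched on by the pathway and are commonly read as its output. In the embryonic cochlea the spiral ganglion is a source of Shh, and Hedgehog signalling there holds back hair cell (HC) differentiation.

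The transducer *Smo* and the transcription factor *Gli3* were expressed at moderate levels in both populations, and *Gli2* and *Sufu* were higher in Lgr6+ progenitors. The ligands and the target genes among the 9 members stayed under an FPKM of 1 in both populations. The levels of *Gli2* and *Sufu* were 3.9 and 2.5 times as high in Lgr6+ as in Lgr5+ progenitors. The filter used here asked that FPKM reach 1 in either population, and 4 of the 9 genes passed it, *Smo*, *Gli2*, *Gli3* and *Sufu*, each of which reached 1 in both. The other 5, *Shh*, *Ihh*, *Ptch1*, *Gli1* and *Hhip*, stayed under 1 in both. FPKM was higher in Lgr6+ progenitors for 7 of the 9 genes and higher in Lgr5+ progenitors for *Gli3* alone, and *Shh* was listed at 0 in both. Of the 7, *Ihh*, *Ptch1*, *Gli1* and *Hhip* were under 1 in both. Over all 23997 genes, 8856 were higher in Lgr6+ and 7549 in Lgr5+ progenitors, and 8215 and 9439 were listed at 0 there.

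**Figure D1:**
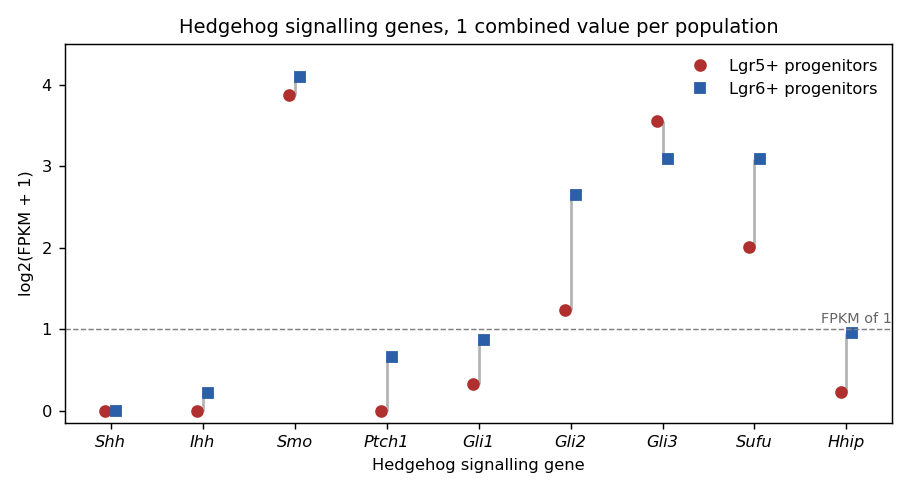
Level of each of the 9 genes as log2(FPKM + 1) on the vertical axis, with circles for Lgr5+ progenitors, squares for Lgr6+ progenitors, a grey line joining the pair and a dashed line at an FPKM of 1. Each symbol is 1 combined value and has no error bar. *Smo*, *Gli2*, *Gli3* and *Sufu* lie above the dashed line in both populations, and *Gli2* and *Sufu* show the longest lines.

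Changes are given as log2(FPKM + 1) in Lgr6+ minus Lgr5+ progenitors, so that a negative change means higher expression in Lgr5+ progenitors, and adding 1 makes changes of low genes look smaller. On this scale 2 of the 4 genes that passed the filter, *Gli2* and *Sufu*, were at least 1.5-fold apart, both toward Lgr6+ progenitors. Among all 13436 genes that passed the filter, 51.8% were at least 1.5-fold apart, 28.5% higher in Lgr6+ and 23.3% higher in Lgr5+ progenitors. A count of 2 of 4 is close to that background. The balance of the background depended on scaling, since 55% of the calls over all genes were toward Lgr6+ progenitors as deposited and 69.3% after the populations were scaled to the same summed FPKM, which moved the median change of these genes from 0.03 to 0.27.

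**Figure D2:**
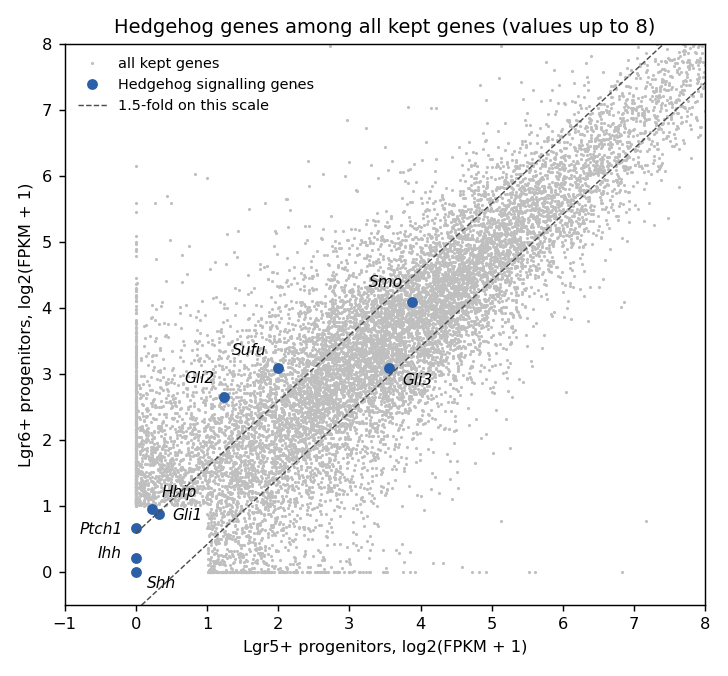
Each grey point is 1 of the 13436 genes that passed the filter, with log2(FPKM + 1) in Lgr5+ progenitors on the horizontal axis and in Lgr6+ progenitors on the vertical axis, drawn up to 8. The blue points are the 9 Hedgehog genes, and the dashed lines mark 1.5-fold. *Gli2* and *Sufu* lie above the upper line, *Smo* and *Gli3* lie between the lines, and the other 5 sit in the lower left corner.

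The values rest on cell populations whose markers differed. *Lgr5* had an FPKM of 9.65 in Lgr5+ and 25 in Lgr6+ progenitors, and *Lgr6* had 2.06 and 2.90, so neither sorting gene was higher in the population sorted for *Lgr5*, and *Lgr6* was under 1.5-fold apart. All 8 supporting cell (SC) markers and all 8 HC markers were present in both populations. Past 1.5-fold were 3 of the SC markers toward Lgr5+ and none toward Lgr6+ progenitors, with a median log2 change of -0.46. These were *Sox2* with an FPKM of 140 and 54.8, *Hes5* with 505 and 91.7 and *Jag1* with 108 and 59.2. The interval listed for *Sox2* is 118 kb long and spans 4 RefSeq gene models. Past the same fold were 6 of the HC markers toward Lgr6+ and none toward Lgr5+ progenitors, with a median change of 0.88, among them *Otof* with 41.6 and 171 and *Gfi1* with 19.5 and 55.5. The summed FPKM, 3905 and 3550 for SC and 751 and 1003 for HC markers, was dominated by single genes. Without *S100a1*, at 2959 and 3177, the SC sum was 946 and 373, and without *Pvalb*, at 477 and 408, the HC sum was 274 and 594. Marker sums in Lgr5+ and Lgr6+ progenitors were 54.3 and 426 for mesenchyme and fibrocytes, 1.12 and 178 for macrophages, 6.59 and 50.4 for endothelium, 33.8 and 147 for Schwann cells and glia, 0.507 and 3.85 for melanocytes, 329 and 248 for neurons and 514 and 92.1 for erythroid cells. The neuron sum was dominated by *Isl1*, at 233 and 117, while *Snap25* went the opposite way with 7.63 and 53.4. That list had 2 genes past 1.5-fold in each direction. Of the 6 macrophage markers, 4 were listed at 0 in Lgr5+ progenitors and none in Lgr6+ progenitors. In bulk samples such as these, fewer cells of a type and less RNA per cell cannot be told apart.

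Neither ligand among the members reached an FPKM of 1. *Shh*, on chromosome 5 from 28456840 to 28719209 (GRCm38), was listed at an FPKM of 0 in both populations. Its interval in the table is 262 kb long and spans 3 RefSeq gene models, while the *Shh* model itself ends at 28467101. *Ihh*, a paralogue best known from cartilage and gut, lies on chromosome 1 from 74945318 to 74951651, and was listed at 0 in Lgr5+ and at 0.160 in Lgr6+ progenitors. A 0 in such a table can be a failed estimate, so no ratio is given against it.

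The lowest FPKM values fall on steps, because a gene can hold only whole fragments, and the number of steps shows how much lies behind a low value. That number was smaller in Lgr5+ than in Lgr6+ progenitors for *Ihh*, *Ptch1*, *Gli1* and *Hhip*. After multiplication by the transcript length in kilobases less 200 bases, the spacing was 0.128 in Lgr5+ and 0.0400 in Lgr6+ progenitors, read from 6532 genes with a single annotated transcript. A step may be 1 fragment or a share of several libraries, and the number of steps given for a gene takes its longest annotated transcript. For *Ihh* the Lgr6+ value equalled 9.08 steps. The same FPKM in Lgr5+ progenitors would have been 2.83 steps. Values of 1 and 2 steps were seen there for other genes, so such a level could be listed, but the *Ihh* difference rests on few steps and is uncertain.

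*Ptch1*, on chromosome 13 from 63511533 to 63565520, encodes the receptor and is also a target gene of the pathway. It was listed at 0 in Lgr5+ progenitors and at 0.582 in Lgr6+ progenitors. The Lgr6+ value equalled 59.7 steps, and the same FPKM would have equalled 18.6 steps in Lgr5+ progenitors. Of the 400 other genes whose Lgr6+ value was within 1.2-fold of that of *Ptch1*, 117 or 29.2% were also listed at 0 in Lgr5+ progenitors, so a 0 there was common for genes of this level.

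*Gli1*, a transcriptional activator and the usual readout of the pathway, lies on chromosome 10 from 127321964 to 127341579. Its FPKM was 0.257 in Lgr5+ and 0.826 in Lgr6+ progenitors, so the log2 change was 0.54 and the plain ratio 3.22. These values equalled 6.93 and 71.5 steps. The interval also covers *Arhgap9*, whose RefSeq model overlaps *Gli1*, and fragments of the pair may not have been told apart.

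*Hhip*, a membrane protein that binds Hedgehog ligands and limits their range, lies on chromosome 8 from 79965851 to 80058008. It had an FPKM of 0.173 in Lgr5+ and 0.931 in Lgr6+ progenitors, so the log2 change was 0.72 and the plain ratio 5.37. The Lgr5+ value equalled 5.92 steps and the Lgr6+ value 102. All 3 target genes among the members were thus higher in Lgr6+ progenitors, and each stayed under an FPKM of 1. Their Lgr6+ levels exceeded those of 3.68% for *Ptch1*, 4.58% for *Gli1* and 5.02% for *Hhip* of the genes that passed the filter. None of the 3 passed it, so they could exceed only genes that passed through their Lgr5+ value. These low ranks therefore follow from the filter.

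*Smo*, on chromosome 6 from 29735497 to 29761366, encodes the transducer that Ptch1 holds in check, and it had the highest level of the 9 genes in both populations. Its FPKM was 13.7 in Lgr5+ and 16.1 in Lgr6+ progenitors, so the log2 change was 0.22. These levels exceeded those of 59.7% and 63.7% of the genes that passed the filter. The values equalled 383 and 1444 steps.

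*Gli3*, on chromosome 13 from 15463723 to 15730025, followed *Smo* in Lgr5+ progenitors with an FPKM of 10.8. In Lgr6+ progenitors its FPKM was 7.47, a log2 change of -0.48, so it was the only member with the higher value in Lgr5+ progenitors and it stayed under 1.5-fold. The ratio of Lgr5+ to Lgr6+ FPKM was 1.45. Its direction was the same under every scaling tried, with changes from -0.57 after quantile normalization to -0.25 after scaling to the same sum.

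*Gli2*, on chromosome 1 from 118834061 to 119053619, encodes the main activator of the family. Its interval of 220 kb spans 3 RefSeq gene models, though it lies within that of *Gli2*. Its FPKM was 1.35 in Lgr5+ cells against 5.26 in Lgr6+ cells, and its log2 change of 1.41 was the highest among the 9 genes on the log2(FPKM + 1) scale. With a pseudocount of 0.1 the changes of *Ptch1*, 2.77, and *Hhip*, 1.91, exceeded that of *Gli2*, 1.89, and as a plain ratio *Hhip* exceeded it as well. The values equalled 67.6 and 846 steps. Of the 5100 genes whose higher FPKM lay from 5 to under 20, where *Gli2* and *Sufu* both lie, 29.1% were past 1.5-fold toward Lgr6+ progenitors.

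*Sufu*, on chromosome 19 from 46396896 to 46488804, encodes the inhibitor that holds Gli proteins in the cytoplasm. Its FPKM was 3.01 in Lgr5+ and 7.52 in Lgr6+ progenitors, a change of 1.09, and the values equalled 101 and 812 steps. In Lgr6+ progenitors *Sufu* and *Gli3* were at nearly the same level, with a ratio of *Gli3* to *Sufu* of 0.993, against 3.6 in Lgr5+ progenitors. Without replicate values it cannot be said which neighbours in the order of levels differ beyond their spread.

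The *Gli2* and *Sufu* differences moved with markers of other cells. The mesenchyme and fibrocyte list had 5 of 8 genes at least 1.5-fold higher in Lgr6+ progenitors, none the other way and none listed at 0. Among them *Col1a2* had an FPKM of 15.8 and 90.2, *Col3a1* had 5.07 and 32.4, and *Otos* had 5.6 and 248, in Lgr5+ and Lgr6+ progenitors. The fibrocyte regulator *Pou3f4* had 14.9 and 13.2. Of the macrophage, endothelial and Schwann cell lists, 5 of 6, 4 of 5 and 2 of 5 genes were higher in Lgr6+ progenitors by the same measure. The other endothelial gene, *Tie1*, was past 1.5-fold toward Lgr5+ progenitors, with 2.09 and 0.999. So were 3 of 5 erythroid genes, and the neuron list had 2 genes past it in each direction. The HC list moved the same way, with 6 of 8 genes past 1.5-fold toward Lgr6+ progenitors and none the other way, while 3 of 8 SC markers were past it toward Lgr5+ progenitors. The part of any of these cells in the *Gli2* and *Sufu* values was not tested.

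The summed FPKM of the 3 Gli genes was 12.4 in Lgr5+ and 13.6 in Lgr6+ progenitors, while its make-up differed. *Gli3* made up 87.1% of the sum in Lgr5+ progenitors and 55.1% in Lgr6+ progenitors. *Gli2* made up 10.8% and 38.8%, and *Gli1* 2.07% and 6.10%. The ratio of *Gli3* to *Gli2*, a repressor-leaning to an activator-leaning member as textbooks describe them, was 8.03 in Lgr5+ and 1.42 in Lgr6+ progenitors. Such ratios within a population do not depend on how the populations are scaled by a common factor, but they describe mRNA and not the processed proteins.

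**Figure D3:**
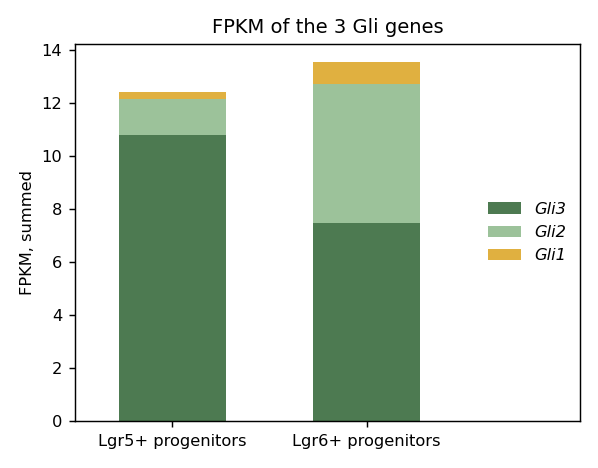
Stacked bars of the FPKM of *Gli3*, *Gli2* and *Gli1* in Lgr5+ and Lgr6+ progenitors, from 0, 1 combined value per gene and population and no error bars. The bars are of similar height, 12.4 and 13.6, and the *Gli2* part is larger in Lgr6+ progenitors.

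With only 2 populations, many genes share any given pair of levels. By distance on the log2(FPKM + 1) scale over the 2 populations, the genes nearest to *Gli2* were *Rasal2*, *Bdh1* and *Entpd3*, at distances from 0.031 to 0.042, and 68 genes lay within 0.25. For *Sufu* the nearest were *Otud7b*, *Ank2* and *Tfpi*, with 101 genes within 0.25. *Mga*, *Ccnyl1* and *Klhl24* were nearest to *Gli3*, with 206 genes within 0.25, and *Dnajc9*, *Emc8* and *Extl2* were nearest to *Smo*, with 240.

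Upstream sequence is shown for *Gli2* and *Sufu*, the members past 1.5-fold, and for *Ptch1*, the target gene listed at 0 in Lgr5+ progenitors. Each is the 250 bases before a RefSeq transcription start on GRCm38.p6, written 5′ to 3′ along the gene, with CG dinucleotides in capitals. The RefSeq gene models of *Gli2* and *Ptch1* reach further, to 119054405 and 63573460, so their stretches lie inside the models. *Gli2* lies on the minus strand at chr1:119053620-119053869, *Sufu* on the plus strand at chr19:46396646-46396895 and *Ptch1* on the minus strand at chr13:63565736-63565985.
Gli2: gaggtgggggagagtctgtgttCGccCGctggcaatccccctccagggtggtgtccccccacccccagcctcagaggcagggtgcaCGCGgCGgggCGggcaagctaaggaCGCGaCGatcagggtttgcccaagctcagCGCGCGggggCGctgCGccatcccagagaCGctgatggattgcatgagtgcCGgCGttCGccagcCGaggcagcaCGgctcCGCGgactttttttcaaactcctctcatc
Sufu: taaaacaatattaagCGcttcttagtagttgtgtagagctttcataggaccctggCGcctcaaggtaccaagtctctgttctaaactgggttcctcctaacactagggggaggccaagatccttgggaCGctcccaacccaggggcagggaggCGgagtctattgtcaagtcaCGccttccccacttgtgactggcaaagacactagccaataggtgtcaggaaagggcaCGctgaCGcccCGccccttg
Ptch1: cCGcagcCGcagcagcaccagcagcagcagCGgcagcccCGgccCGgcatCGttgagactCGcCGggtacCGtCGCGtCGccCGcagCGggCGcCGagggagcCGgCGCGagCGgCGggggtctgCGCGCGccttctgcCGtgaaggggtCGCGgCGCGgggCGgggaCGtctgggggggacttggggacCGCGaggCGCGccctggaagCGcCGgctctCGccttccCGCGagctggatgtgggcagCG

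The RefSeq windows, which add the 50 bases after the start, were found for 7 of the 9 genes, *Ihh*, *Smo*, *Ptch1*, *Gli2*, *Gli3*, *Sufu* and *Hhip*. The median of all 32851 windows was 7 CG dinucleotides and a GC content of 52.7%, and all 7 Hedgehog windows exceeded both medians. *Ptch1* had 47 CG dinucleotides, more than 98.6% of all windows, and *Gli3* had 39, more than 95.6%. *Ihh* and *Hhip* had 30 each, *Gli2* had 28 and *Smo* had 17, while *Sufu* had the fewest, 12, which is still more than 60.4% of all windows. The window with the most CG dinucleotides was that of a gene near 0, *Ptch1*, and the highest expressed gene, *Smo*, had the second lowest number.

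The letters GACCACCCA, known as the binding sequence of Gli proteins, were in none of the 7 windows on either strand, and 0.253% of all windows held them. The shorter ACCACCCA, which lies within it, was also in none of the 7, against 1.48% of all windows. No match says only that these letters are not in the windows searched.

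Around the 9 genes, 58 further pathway genes were taken from lists by role, of which 49 passed the filter. At least 1.5-fold higher expression was found for 12 of the 49 in Lgr6+ and for 13 in Lgr5+ progenitors, and their median change was -0.15, against 0.03 over all genes that passed. The split moved with the setting. With the members included, it was 14 higher in Lgr6+ and 13 in Lgr5+ progenitors, 18 and 7 after scaling to the same sum, and 10 and 17 after quantile normalization. A threshold of 2-fold left 8 and 2. The share of calls over all genes that were toward Lgr6+ progenitors was 55%, 69.3%, 50% and 60.8% in the same order. None of these 27 genes changed direction after quantile normalization or scaling to the same upper quartile or the same sum. The other settings, a different filter, threshold or pseudocount and the plain ratio, cannot change a direction, and the ratio leaves out *Dhh*. Scaling to the same sum brought 6 of them within 1.5-fold, *Boc*, *Iqce*, *Fbxw11*, *Prkaca*, *Tulp3* and *Bcl2*. Quantile normalization did so for 4, *Disp1*, *Lrp2*, *Dync2h1* and *Ccnd2*.

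**Figure D4:**
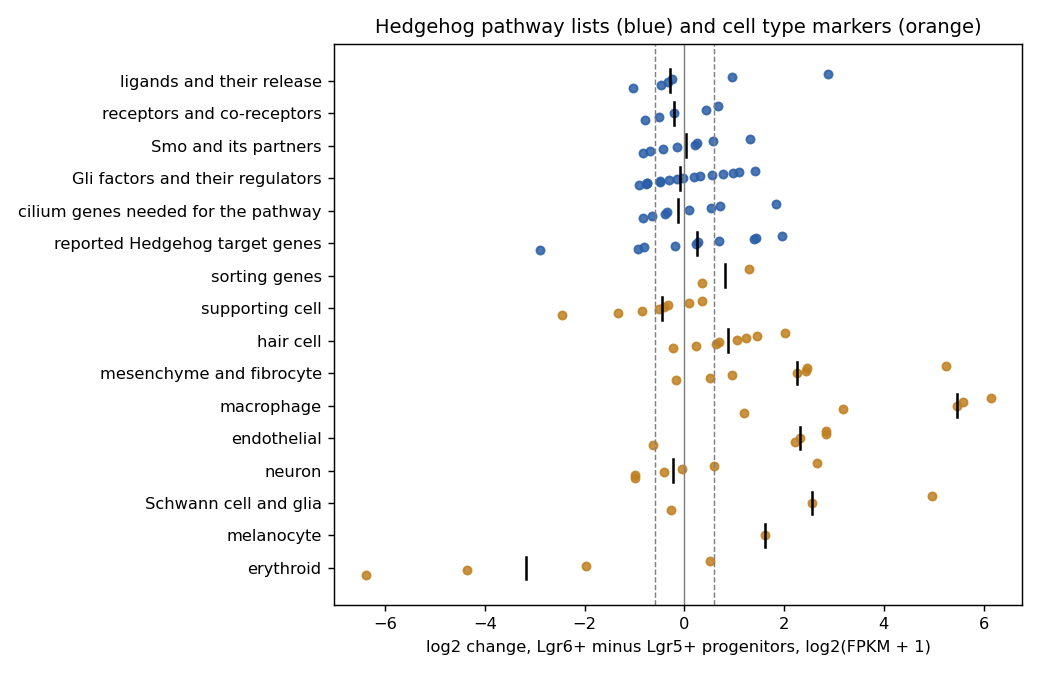
Log2 change of each gene that passed the filter, Lgr6+ minus Lgr5+ progenitors on the log2(FPKM + 1) scale, by pathway list in blue and by cell type marker list in orange. Black bars are list medians and dashed lines mark 1.5-fold. The pathway medians lie from -0.28 to 0.26, while the medians of the mesenchyme, macrophage, endothelial and Schwann cell lists lie at 2.25 or above.

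Ligands and the genes that release them were low. Of the 9 on the list 6 passed the filter, *Dhh* and *Disp1* higher in Lgr6+ and *Scube3* higher in Lgr5+ progenitors. After quantile normalization 1 was higher in Lgr6+ and 4 in Lgr5+ progenitors, and as a plain ratio 1 and 3. *Dhh*, the ligand best known from Schwann cells and testis, was listed at 0 in Lgr5+ and at 6.30 in Lgr6+ progenitors, which made it the highest of the ligands. Of the 1285 genes within 1.2-fold of that Lgr6+ value, 39 or 3.04% were listed at 0 in Lgr5+ progenitors. The Schwann cell and glia marker *Mbp*, with an FPKM of 10.7 and 67.4, was 1 of the 2 genes of its list of 5 that were past 1.5-fold toward Lgr6+ progenitors. *Erbb3* was under 1 in both populations and *Foxd3* was listed at 0 in Lgr6+ progenitors. The part of Schwann cells in the *Dhh* value was not tested. *Disp1*, needed to release lipid-bearing ligand, had 0.493 and 1.91, and *Scube3*, a secreted partner in release, had 2.25 and 0.582.

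Receptors other than *Ptch1* were better expressed. *Gas1*, a membrane-anchored co-receptor, had the highest level of the receptor list, with an FPKM of 69.4 in Lgr5+ and 49.0 in Lgr6+ progenitors, so the log2 change was -0.50. *Boc*, another co-receptor, had 33.2 and 18.6, a change of -0.80 that fell within 1.5-fold after scaling to the same sum. Its relative *Cdon* had 7.01 and 5.97. *Lrp2*, a large endocytic receptor, had 1.01 and 2.21. The summed FPKM of the 8 receptor genes was 119 in Lgr5+ and 88.6 in Lgr6+ progenitors.

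Around *Smo*, 8 of 9 genes passed the filter. *Efcab7*, which anchors the Evc complex in the cilium, had an FPKM of 0.366 in Lgr5+ and 2.41 in Lgr6+ progenitors. Its partner *Iqce* had 9 and 5.26, in the opposite direction, and *Evc2* had 22.8 and 16.8. The arrestin gene *Arrb1* had 1.16 and 0.215. *Gpr161*, a cilium receptor that keeps the pathway off, was listed at 0 in Lgr5+ progenitors and at 0.0491 in Lgr6+ progenitors.

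Among the 17 genes for Gli factors and their regulators, 16 passed the filter, 4 higher in each direction and 8 within 1.5-fold. Besides *Gli2* and *Sufu*, the kinase gene *Stk36* had an FPKM of 5.57 in Lgr5+ and 12.0 in Lgr6+ progenitors and *Prkacb*, a catalytic subunit of protein kinase A, had 12.3 and 21.7. The other catalytic subunit, *Prkaca*, went the opposite way with 36.9 and 21.7. Higher in Lgr5+ progenitors too were *Spop*, which targets Gli proteins for degradation, with 80.5 and 42.2, *Fbxw11*, a ubiquitin ligase subunit, with 28.8 and 16.6, and *Kif7*, a cilium kinesin that regulates Gli proteins, with 1.10 and 0.249. The interval listed for *Kif7* is 54 kb long and spans 2 RefSeq gene models. *Csnk1a1*, a kinase that phosphorylates Gli proteins, had 105 and 104.

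All 8 cilium genes passed the filter, 2 higher in each direction. *Ift172*, an intraflagellar transport gene, had an FPKM of 7.85 in Lgr5+ and 30.5 in Lgr6+ progenitors, but its interval in the table is 416 kb long and spans 24 RefSeq gene models. *Dync2h1*, a cilium motor, had 4.76 and 8.44. *Inpp5e*, a cilium phosphatase, had 24.7 and 13.4, and *Tulp3*, a carrier of receptors into the cilium, had 52.1 and 32.8. *Ift88* had 18.0 and 19.3, so a transcript of the cilium machinery was present in both populations.

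Of 20 genes reported as Hedgehog targets in one tissue or another, 10 passed the filter, 4 higher in Lgr6+ and 3 higher in Lgr5+ progenitors. The forkhead genes *Foxf2* and *Foxc2*, known from mesenchyme, stood at FPKM 0.649 and 0.365 in Lgr5+ cells and at 5.36 and 2.59 in Lgr6+ cells. Their relative *Foxf1* went the opposite way, with 0.774 and 0.085, but it stayed under the filter and was past 1.5-fold only when no filter was applied. *Foxm1*, a regulator of mitosis, had 1.09 and 4.61. Of the D-type cyclins, *Ccnd2* had 4.80 and 8.41 and *Ccnd1* had 66.8 and 34.4, so that they went opposite ways. The interval listed for *Ccnd2* is 86.7 kb long and spans 4 RefSeq gene models. *Bmp4*, a secreted growth factor, showed the largest difference on this list, with 35.7 in Lgr5+ and 3.96 in Lgr6+ progenitors, so the log2 change was -2.89. *Bcl2*, an inhibitor of apoptosis, had 15.6 and 8.41. *Foxa2* and *Nkx2-2*, targets known from the neural tube, were listed at 0 in both populations. The mesenchyme markers given beside *Gli2* moved with *Foxf2* and *Foxc2* as well, and their part in these values was not tested.

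Each member kept its direction under the settings compared in the plot of changes by setting, apart from *Shh*, where quantile normalization gave -0.01 from values of 0. Of these settings, the other pseudocount and the plain ratio cannot change a direction. *Gli2* ran from 1.15 after quantile normalization to 1.96 as a ratio without a pseudocount, and *Sufu* from 0.90 to 1.32. The low genes moved more. *Gli1* ran from 0.09 after quantile normalization to 1.69 as a plain ratio, and *Hhip* from 0.30 to 2.42. *Ptch1* ran from 0.47 after quantile normalization to 2.77 with a pseudocount of 0.1, and *Ihh* from 0.12 to 1.38 under the same settings.

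**Figure D5:**
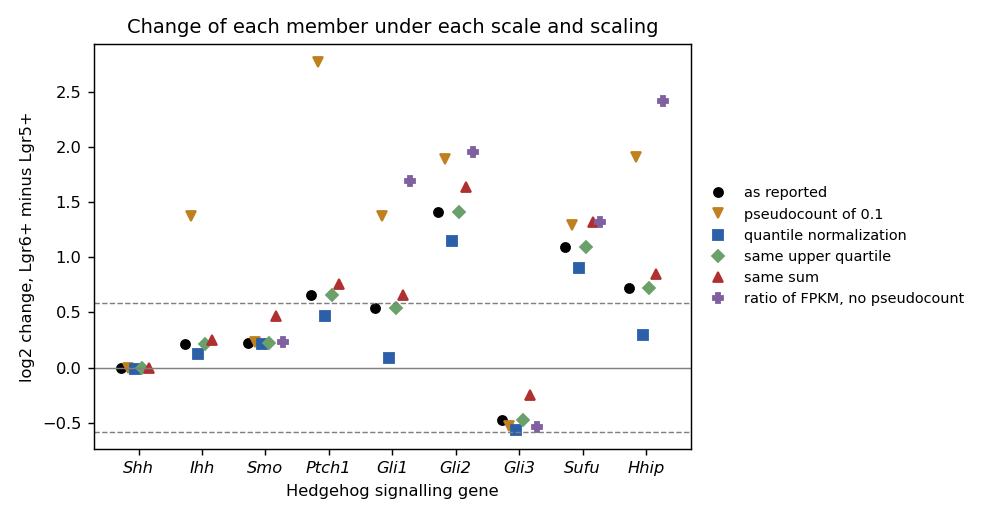
Log2 change of each of the 9 genes, Lgr6+ minus Lgr5+ progenitors, on the vertical axis under 6 scales and scalings given by symbol, with dashed lines at 1.5-fold. *Gli2* and *Sufu* stay above the upper line under all 6, *Smo* and *Gli3* stay between the lines, and *Gli1*, *Hhip*, *Ptch1* and *Ihh* cross the upper line between settings.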

How the data were processed

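RNA-Seq of 4 libraries, 2 of Lgr5+ and 2 of Lgr6+ progenitors by the labels, was taken from the deposited table. The authors made cDNA with the SMART-Seq v4 kit and used Trimmomatic for trimming, TopHat for mapping and Cufflinks for FPKM, and versions are not given in the sources used here. Each FPKM that the authors deposited is 1 combined value per population, so the depth of single libraries is unknown. The table also holds the authors' fold changes, *p*-values and *q*-values, which were not used. The labels name mm10 and the paper mm9. All 9 members overlapped their gene in GRCm38, against 2 in NCBIM37 (mm9), so positions are read as GRCm38 and given from base 1.

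Changes were computed on log2(FPKM + 1) for genes whose FPKM reached 1 in either population, and counted from 1.5-fold. The study set the same fold beside expression above background and a limit on the *p*-value. No *p*-value was used here, so the counts are not comparable with those of the study. No test between the populations was possible. Transcript lengths came by symbol from the GENCODE annotation of NCBIM37, gene models and upstream sequences from RefSeq (GRCm38.p6). Members and lists were chosen with earlier results of these data known. Genes were named by a rule, which took the members, up to 25 pathway genes past 1.5-fold, the markers and the 3 genes nearest to each member that passed the filter. *Lrp2*, *Tulp3* and the pathway genes named within 1.5-fold or under the filter were chosen after their values were seen. A few list genes are counted but not reported here by name. Python 3.11.15, numpy 2.4.6, pandas 2.3.3 and matplotlib 3.10.9 were used.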

Additional observations from a re-analysis of the deposited data

How the results depend on the processing

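No paired analysis was possible because the deposited table holds 1 combined value per population, and for the same reason no library could be left out in turn. *Gli2* and *Sufu* passed under every alternative, the 2-fold threshold included. With no filter on low values, the members past 1.5-fold numbered 4 (*Ptch1* and *Hhip* added), the receptor list 4, and the share of all genes past 1.5-fold was 30.9%, as genes at or near 0 entered it. At a minimum FPKM of 5 the ligand, receptor and Smo lists had 1 gene each. After quantile normalization the ligand list had 5 (1 toward Lgr6+ and 4 toward Lgr5+ progenitors) and the receptor list 1. At 2-fold the receptor list had 0, the Smo list 1, the Gli list 2, the cilium list 1 and the target list 4, and the share of all genes was 29.9%. When FPKM had to reach 1 in both populations, which was added with the values known and so chosen after seeing the data, the ligand list had 0 and the Smo list 1. These lists are short, so 1 gene can move a count by over 1.5 times. Of the other counts and shares, 65 stayed within 1.5 times of the reported value. No pathway gene past 1.5-fold changed direction, which only quantile normalization and the scalings could have brought about. Depth limits *Ihh* most, whose Lgr6+ value would have been 2.83 steps in Lgr5+ progenitors. For *Ptch1*, *Gli1* and *Hhip* the same conversion gave 18.6, 22.3 and 31.8 steps, against 0, 6.93 and 5.92 found in Lgr5+ progenitors. Counting error could not be separated from the spread between libraries.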
